A study of Homo sapiens with 3 samples.

Results

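The apolipoprotein L (APOL) family was followed across 3 RNA sequencing libraries of LX-2 cells, an immortalised line of human hepatic stellate cells, the liver cells that turn into matrix-producing myofibroblasts after injury. The members were the rows of the deposited table whose gene symbol is APOL1, APOL2, APOL3, APOL4 or APOL6, 5 genes of 17576. The title of the study names APOL2 as the protein that a natural small molecule acts on to lessen liver fibrosis. The labels call that molecule DP.

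All cultures were LX-2 cells in Dulbecco's medium with fetal bovine serum, treated for 48 h. The first received the vehicle DMSO. The second received transforming growth factor beta 1 (TGF-b1), the cytokine that drives stellate cell activation, at a dose not given in the sources used here. The third received TGF-b1 together with 10 μM DP. Each group was 1 library, so no difference between libraries has a replicate check, no SD or p-value is given, and every statement describes these libraries and not the treatments in general. DP without TGF-b1 was not analysed here.

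APOL proteins share an amphipathic, membrane-inserting core. APOL1 is secreted and travels on high-density lipoprotein particles, where it forms pores in the membranes of African trypanosomes, whereas the other family members lack its signal peptide and stay inside the cell. Interferons and tumour necrosis factor are known inducers of several APOL genes, and in human cells the family is best known in innate immunity and, for APOL1, in kidney disease. APOL2 has been placed at the endoplasmic reticulum, APOL3 acts with guanylate-binding proteins to break the membranes of bacteria in the cytosol, and APOL6 has been tied to cell death through a BH3-like stretch.

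All 5 genes lie on chromosome 22. Positions are those of GENCODE release 29 on GRCh38, over the whole gene with its exons and introns. APOL3 (gene ID 80833) spans 36140330 to 36166177 on the minus strand, followed by APOL4 (80832) at 36189124 to 36204840 and APOL2 (23780) at 36226203 to 36239954, both on the minus strand. APOL1 (8542) lies at 36253010 to 36267530 on the plus strand, 13.1 kb from APOL2 and pointing away from it. These 4 genes occupy 127 kb. APOL6 (80830) lies apart, at 35648395 to 35668409 on the plus strand, with 472 kb between it and APOL3.

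The transcripts resemble each other, which bears on how well reads can be assigned. Among the longest GENCODE transcripts of the members, the best local alignment of APOL1 and APOL2 covered 1749 bases at 82.1% identity. For APOL3 and APOL4 it covered 882 bases at 87.6%, and for APOL2 and APOL3 832 bases at 85.2%. No alignment of a member with a transcript of any other gene reached 97% identity over its whole length at 100 bases or more. Shorter near-identical stretches inside longer, less alike alignments were not sought, so how well reads can be told apart between members was not tested. No other gene's exons overlapped those of a member. Longest transcripts ran from 2685 bases in APOL2 and 3000 in APOL1 through 3423 in APOL4 and 3626 in APOL3 to 10121 in APOL6.

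Values are FPKM, by the usual definition the fragments of a transcript divided by its length and by all mapped fragments of its library. Levels are thus per unit of transcript length. Differences between libraries still ran with transcript length, as given below, so levels of genes of unlike length can be compared only roughly. The column sums differed, at 443566 FPKM for the vehicle, 546754 for TGF-b1 alone and 429399 with DP. The sources used here do not give the fragments per library, and low values did not fall clearly on whole-fragment steps, so the counting error behind each value is unknown.

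The cell type was checked against marker genes. The 13 stellate and myofibroblast markers summed to 2838, 5455 and 5262 FPKM (vehicle, TGF-b1 alone, TGF-b1 with DP), most of it VIM at 1936, 2734 and 2799.6 and TIMP1 at 271, 1111 and 1717. Of the 9 that averaged 1 FPKM or more, 5 were at least 2-fold higher (on FPKM + 1) in TGF-b1 than in DMSO. With DP 3 of the 9 were at least 2-fold lower than in TGF-b1 alone. Of all 11327 genes with that average, 2.31% were higher and 4.26% lower in these comparisons, in that order. The 3 lower markers were ACTA2, the smooth muscle actin of myofibroblasts, at 21.1, 78.1 and 6.79 FPKM, SPARC at 269.5, 880.4 and 370 and COL3A1 at 34.9, 33.1 and 10.8. COL1A1 was at 295, 604 and 349. The list median of log2 differences was 1.03 for TGF-b1 against DMSO and -0.79 for DP against TGF-b1 alone, both opposite in sign to the APOL medians below. With columns brought to the same total 2 of the 9 were lower on adding DP, beside 125 of all genes with that average. With a trend in transcript length and GC content removed 5 were lower and TIMP1 was higher (1.17). Of all genes with that average 270 were lower and 359 higher in that setting. The markers DES, LRAT and GFAP were at or below 0.16 FPKM. Of 6 hepatocyte markers in the table, ALB was at 0.02 FPKM in DMSO and listed at 0 in the other libraries, and summed levels were 4.53, 2.40 and 89.1 FPKM in the same library order. SERPINA1, which is in that list, accounted for 3.99, 1.93 and 88.5 FPKM of those sums.

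Of 6 endothelial markers none averaged 1 FPKM or more across libraries (sums 1.46, 1.23 and 3.78). CDH5 was at or below 0.06, while PECAM1 was at 0.48, 0.66 and 1.71 and TEK at 0.45, 0.46 and 1.78, both highest with DP. Of 5 leukocyte markers CD3E was listed at 0 throughout and PTPRC was at or below 0.58, while CD68, which is also lysosomal, was at 48.5, 21.3 and 54.8 (sums 54.4, 26.0 and 57.5). CD14 went the other way on adding DP, at 4.77, 2.94 and 0.96, and CSF1R was at 0.48, 1.25 and 1.52. Of 5 epithelial markers EPCAM was at or below 0.15 and KRT18 at 388, 890 and 203 (sums 392, 898 and 207), with KRT7 at 3.12, 7.14 and 4.13. The part of these markers in the APOL values was not tested.

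APOL1 and APOL2 were the abundant members and were close to each other in 2 of 3 libraries. APOL1, the secreted member, had 57.3 FPKM with the vehicle, 36.5 with TGF-b1 alone and 88.8 after DP was added. APOL2, the member named in the title, had 56.1, 49.1 and 85.8 FPKM in the same order. Both were highest with DP and lowest with TGF-b1 alone, and the gap between the lowest and the middle library was much smaller for APOL2 than for APOL1. Among the 11327 genes that averaged 1 FPKM or more, called kept genes here, 92.0% were below APOL2 in TGF-b1+DP and 83.6% in TGF-b1 alone.

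APOL3, the bactericidal member, had 12.5 FPKM with the vehicle, 7.92 with TGF-b1 alone and 22.9 with DP. APOL6 had 9.61, 6.31 and 12.2 FPKM. Both therefore had the same order of libraries as APOL1 and APOL2, at lower levels. That order (DP above vehicle above TGF-b1 alone) was held by 4 of the 5 members and by 1909 of the 11327 kept genes (16.9%). The share was 27.2% with equal column totals and 21.2% under median-of-ratios scaling. These shares were taken without removal of a trend in transcript length and GC content. APOL4, whose function is less well described, had 1.68, 1.23 and 1.35 FPKM, with DMSO highest and less than 0.5 FPKM between its highest and lowest library. APOL5 is a further family gene on the same chromosome arm that is not among the members. It was listed at 0 in DMSO and TGF-b1+DP and was at 0.03 FPKM in TGF-b1.

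**Figure D1:**
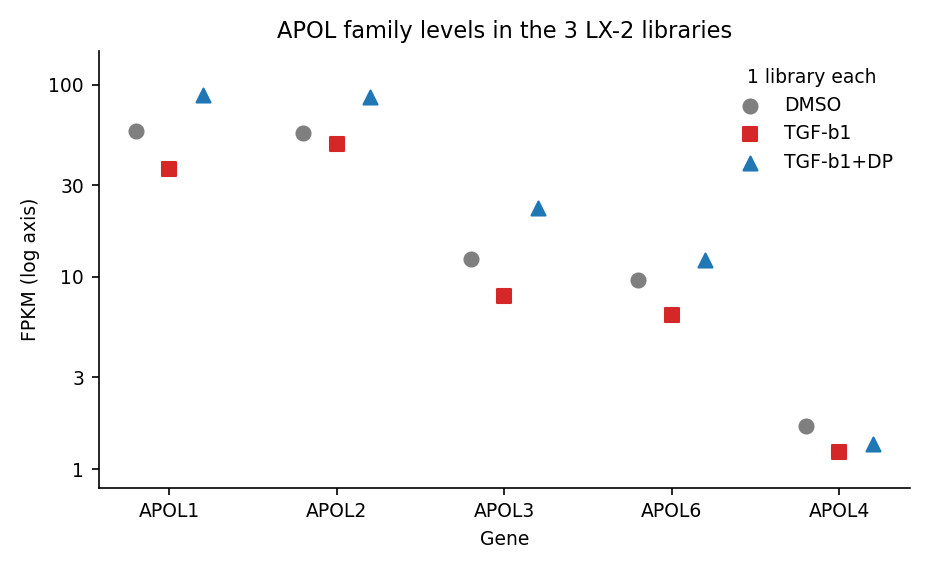
FPKM (log axis) of each APOL gene in the DMSO, TGF-b1 and TGF-b1+DP libraries, 1 point per library. APOL1, APOL2, APOL3 and APOL6 are highest with DP and lowest with TGF-b1, while APOL4 stays between 1.23 and 1.68 FPKM.

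The members were summed to describe the family as a whole. Their FPKM came to 137 with the vehicle, 101 with TGF-b1 alone and 211 with DP. As deposited this is a 2.09-fold higher sum with DP than with TGF-b1 alone, and a 1.54-fold higher sum than in DMSO. These folds depend on the unequal column sums, of which the family made up 0.0309%, 0.0185% and 0.0491% in the same library order. APOL1 and APOL2 supplied most of the family sum. APOL1 made up 41.8% of it with the vehicle, 36.1% with TGF-b1 alone and 42.1% with DP, and APOL2 40.9%, 48.6% and 40.7%. In these bulk libraries fewer cells of a type and less RNA per cell cannot be told apart.

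The library with TGF-b1+DP was first set beside that with TGF-b1 alone, for the gene family of the proposed target of DP. All 5 members were above their level in TGF-b1 alone, as were 49.7% of the 11327 kept genes. Differences were taken as log2 of the ratio of FPKM + 1, and genes were called higher or lower from a log2 difference of 1, that is 2-fold on this scale. By that rule 2 of 5 members were higher and none lower, beside 6.19% of all kept genes higher (701) and 4.26% lower (483). With columns brought to the same total FPKM those counts over all genes were 1434 and 125.

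APOL3 had the largest difference of the family, at 1.42 on the log2 scale, or 2.89-fold on the FPKM themselves. APOL1 followed at 1.26, or 2.43-fold. Among all kept genes 244 had a larger positive difference than APOL3 and 357 a larger one than APOL1. APOL6 was at 0.85 (1.94-fold) and APOL2 at 0.79 (1.75-fold), both short of the 2-fold rule, with 1175 genes (10.4%) above APOL2. APOL4 was at 0.08, well inside the middle of all genes. The median of the 5 members was 0.85, against -0.004 for all kept genes, whose 5th and 95th percentiles were -0.96 and 1.09.

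The library totals bear on where the 2-fold line falls. With the columns brought to the same total, APOL2 stood at 1.14 and APOL6 at 1.16, so that 4 of 5 members passed. By the same rule 1434 of the 11327 kept genes were higher in that setting, which moved the median of all kept genes by 0.29. Relative to that median, APOL3 was at 1.45, APOL1 at 1.31, APOL6 at 0.88, APOL2 at 0.85 and APOL4 at -0.02. Relative to the median of all genes the same 2 members were therefore above 1 with either scaling, while APOL4 changed sign. Differences also ran with transcript length: the fifth of kept genes with the shortest transcripts (up to 2152 bases) had a median of -0.51 and the fifth with the longest (from 5927 bases) 0.40. In TGF-b1 against DMSO these medians were 0.34 and -0.43, and in TGF-b1+DP against DMSO -0.16 and -0.025. The comparisons of TGF-b1+DP and of DMSO with TGF-b1 alone share the TGF-b1 library, so their values are not independent. The trend with length and GC content was removed over all kept genes. For DP against TGF-b1 alone this left APOL1 at 1.29, APOL2 at 0.87 and APOL3 at 1.44. The same step took APOL6, the member with the longest transcript, from 0.85 to 0.50.

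**Figure D2:**
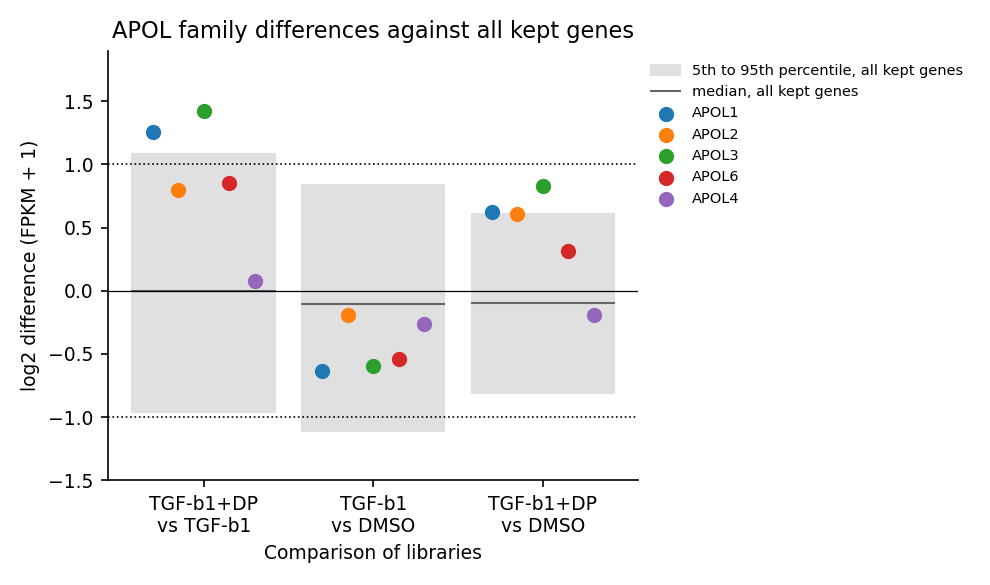
Log2 difference (FPKM + 1) of each APOL gene in the 3 comparisons of libraries, with the 5th to 95th percentile range and the median of all 11327 kept genes as grey boxes and lines and the 2-fold rule as dotted lines. APOL1 at 1.26 and APOL3 at 1.42 lie above the grey box of the first comparison (TGF-b1+DP vs TGF-b1), and all 5 members lie inside the box for TGF-b1 against DMSO.

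The TGF-b1 library was next set beside the vehicle library. All 5 members were below their DMSO level, as were 57.2% of kept genes. None reached a 2-fold difference in either direction, beside 2.31% of all kept genes higher (262) and 6.73% lower (762). Median-of-ratios scaling gave 584 higher and 487 lower genes, and equal totals gave 104 and 1564. APOL1 was at -0.64 on the log2 scale, APOL3 at -0.59 and APOL6 at -0.54, which on the FPKM themselves are levels 1.57-fold, 1.57-fold and 1.52-fold higher in DMSO. APOL4 was at -0.27 and APOL2 at -0.19.

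These differences were small beside the spread over all genes, whose 5th and 95th percentiles were -1.11 and 0.83 with a median of -0.10. Of the kept genes 81.5% had a higher value than APOL1, so it lay in the lower part of the distribution, whereas 55.7% had a higher value than APOL2. The value of APOL2 moved with the scaling: it was -0.01 under median-of-ratios scaling, which moved the median of all genes by 0.16, and -0.49 with the same total FPKM, which moved it by -0.26. Relative to the median of all genes APOL2 was at -0.08 as deposited, -0.12 with equal totals and -0.06 with median-of-ratios scaling. APOL2 thus stood closest to the median of all genes among the 5 members in this comparison as deposited and under median-of-ratios scaling, while with the same total APOL4 (-0.07) was closer. After the correction for length and GC content APOL6 was at -0.32.

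The last pair sets TGF-b1+DP against the vehicle and takes its differences without the TGF-b1 library. It shares a library with each of the comparisons above, so its values are given side by side with theirs and not as separate evidence. Of the 5 members 4 were above their DMSO level, as were 36.9% of kept genes, and APOL4 was below it. None reached a 2-fold difference, beside 2.45% of all kept genes higher (278) and 2.88% lower (326), or 356 and 215 under median-of-ratios scaling.

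APOL3 was at 0.83 against DMSO (1.83-fold), with 370 of the 11327 genes above it. APOL1 at 0.62 (1.55-fold) and APOL2 at 0.60 (1.53-fold) differed by little from each other, although their differences against TGF-b1 alone were 1.26 and 0.79. APOL6 was at 0.32 (1.27-fold) and APOL4 at -0.19. The 95th percentile of all kept genes was 0.61, so APOL3 and APOL1 lay above it and APOL2 just under it. Median-of-ratios scaling moved the median of all genes by 0.14, and relative to that median APOL3 was at 0.93, APOL1 at 0.74 and APOL2 at 0.72. APOL6 was at 0.17 after the correction for length and GC content.

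Ratios between members within a library do not depend on the library total, so they show where the family members parted. APOL1 relative to APOL2 was 1.02 with the vehicle, 0.74 with TGF-b1 alone and 1.03 with DP. APOL1 was thus level with APOL2 in 2 libraries and lower than APOL2 in the library with TGF-b1 alone. APOL3 relative to APOL2 was 0.22, 0.16 and 0.27, again lowest with TGF-b1 alone. APOL6 relative to APOL2 was 0.17, 0.13 and 0.14, lower with DP than in DMSO. These members differ most in transcript length, and after the correction for length and GC content the log2 change of this ratio between TGF-b1 alone and DP added (on FPKM + 1) turned from 0.06 to -0.37. APOL4 relative to APOL2 was 0.030, 0.025 and 0.016 and was lowest with DP, a log2 change of -0.67 from TGF-b1 alone. The ratios were unequal between libraries, and the counting error behind them is unknown.

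**Figure D3:**
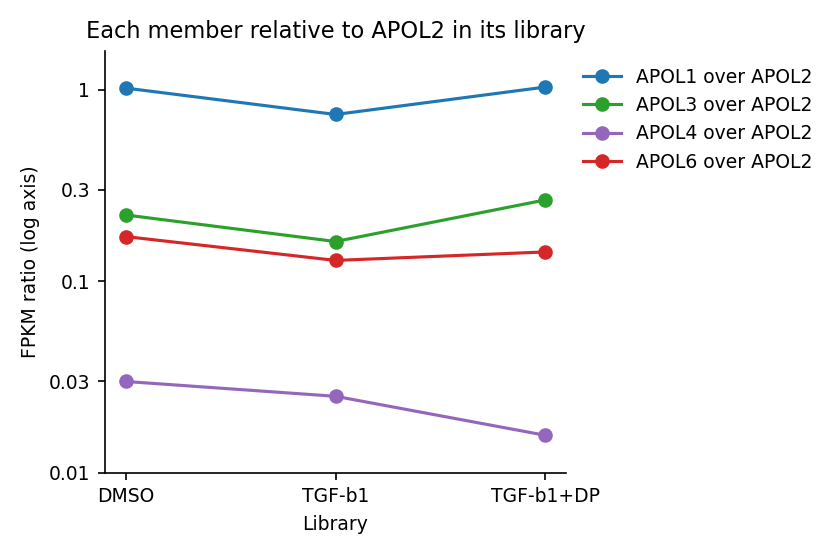
FPKM of APOL1, APOL3, APOL4 and APOL6 divided by the FPKM of APOL2 in the same library (log axis), 1 point per library. The APOL1 ratio is 0.74 in the TGF-b1 library, against 1.02 in DMSO and 1.03 with DP, and the APOL4 ratio is lowest with DP at 0.016.

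Interferon signalling is a known inducer of APOL genes, so its receptors, kinases and transcription factors were described beside the family. Of 14 kept genes in that list 2 were higher on adding DP to TGF-b1 and none lower, beside 6.19% and 4.26% of all kept genes. The list median was 0.33. STAT2 had 15.4 FPKM with the vehicle, 7.64 with TGF-b1 alone and 20.2 with DP (1.30). STAT2 encodes a transcription factor of type I interferon signalling, and it had the order of libraries seen in APOL1, APOL2, APOL3 and APOL6. The kinase JAK1 was at 53.6, 44.2 and 86.5 FPKM (0.95), and IRF9 at 19.9, 20.6 and 40.7 (0.95). IRF1, the interferon regulatory factor that responds to interferon gamma, was at 40.8, 38.6 and 46.6 FPKM (0.26). The receptor chains IFNGR2 (-0.35) and IFNGR1 (-0.33) and the factor IRF3 (-0.09) had the lowest values. None of the 14 passed 2-fold for TGF-b1 against DMSO (median -0.13) or for TGF-b1+DP against DMSO (median 0.13). These small values moved with the scaling. With equal totals 4 of the 14 were higher on adding DP (median 0.63), beside 1434 of the 11327 kept genes, and IRF3 turned to 0.25. After the length and GC correction IRF1 was at -0.11 and IFNGR1 at 0.07. The list median for TGF-b1 against DMSO turned to 0.03 under median-of-ratios scaling. IRF9, at 0.998 for TGF-b1+DP against DMSO, passed 2-fold with equal totals, under median-of-ratios scaling (1.15) and after the correction (1.10), and STAT2 was lower in TGF-b1 than in DMSO with equal totals (-1.19).

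Guanylate-binding proteins, GTPases with which APOL3 acts on bacteria, had 4 kept genes of 6 in the table. On adding DP to TGF-b1 1 of the 4 was higher and none lower, beside 6.19% and 4.26% of all kept genes. The list median was 0.61. GBP4 had 1.22, 0.70 and 3.22 FPKM in that library order (1.31), GBP1 18.0, 26.2 and 43.1 (0.70), GBP3 15.3, 16.4 and 23.8 (0.51) and GBP2 3.60, 1.70 and 2.52 (0.38). GBP1 and GBP3 were lowest in DMSO as deposited, but for GBP3 the TGF-b1 against DMSO difference of 0.09 turned to -0.19 with equal totals and -0.16 after the length and GC correction. Against DMSO GBP1 was higher with DP (1.21) and no other kept gene of the list passed 2-fold, and none did for TGF-b1 against DMSO. The medians were 0.77 and -0.15. With equal totals 2 of the 4 were higher on adding DP (median 0.94), beside 1434 of the 11327 kept genes. GBP4 against DMSO passed under median-of-ratios scaling (1.03).

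Tumour necrosis factor acts on target genes through NF-kB. Of 14 kept genes of that signalling list 5 were higher on adding DP to TGF-b1 and none lower, beside 6.19% and 4.26% of all kept genes. As deposited the list median was 0.85, close to that of the APOL members. After the length and GC correction it was 0.77, beside 0.87 for the members. With equal totals 8 of the 14 were higher (median 1.14), beside 1434 of the 11327 kept genes. TRAF1, an adaptor of tumour necrosis factor receptors, was at 7.21, 3.47 and 45.3 FPKM (3.37), and TNFAIP3, which shuts NF-kB signalling off, at 12.4, 4.78 and 36.5 (2.70). The subunits RELB (1.31), NFKB2 (1.30) and NFKB1 (1.21) followed, while RELA was at 0.14. TNFRSF1A (0.11) and NFKBIA (0.26) had the other low values. For TGF-b1 against DMSO none was higher and 2 were lower, TNFRSF1B (-2.40) and TNFAIP3 (-1.21), with a list median of -0.56. With equal totals 5 were lower (median -0.80), beside 1564 of the 11327 kept genes. After the length and GC correction TNFAIP3 was at -0.97 and BIRC3 passed 2-fold. Between TGF-b1+DP and the vehicle TRAF1 (2.50), TNFAIP3 (1.48) and RELB, at 18.8 and 38.7 FPKM, were the 3 higher genes. TNFRSF1B (-1.58) was the 1 lower gene, and the list median was 0.27, beside 0.60 for the APOL members. TNF itself was at or below 0.11 FPKM in every library.

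Apolipoproteins outside the family carry lipid in plasma or sit in mitochondria. The list held 19 genes, APOL5 among them, of which 11 were in the table and 6, all outside the family, were kept. As deposited none of the 6 passed 2-fold for DP against TGF-b1 alone, where the median was -0.26, or for TGF-b1 against DMSO, where it was -0.41. CLU, a secreted chaperone, had 81.1 FPKM with the vehicle, 44.0 with TGF-b1 alone and 26.1 with DP. Its difference was -0.73 between TGF-b1 alone and DP added and -1.60 between DP and vehicle, where it was the single kept gene of the list past 2-fold and the median was -0.55. The mitochondrial APOO was at 18.2, 30.8 and 15.1 FPKM (-0.98) and APOM at 1.82, 1.31 and 0.79 (-0.37). The highest values were those of APOOL (0.56), APOC1 (-0.08) and APOLD1 (-0.16), an endothelial gene that shares a domain with the family. With equal totals APOC1 turned to 0.08 and APOLD1 to 0.05, and after the length and GC correction APOC1 was at 0.61 and APOM at 0.22. APOO passed 2-fold under median-of-ratios scaling (-1.01), and for TGF-b1 against DMSO CLU did with equal totals (-1.16) and APOC1 after the correction (-1.02). APOE was at or below 0.60 FPKM and APOA1 at or below 0.05.

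**Figure D4:**
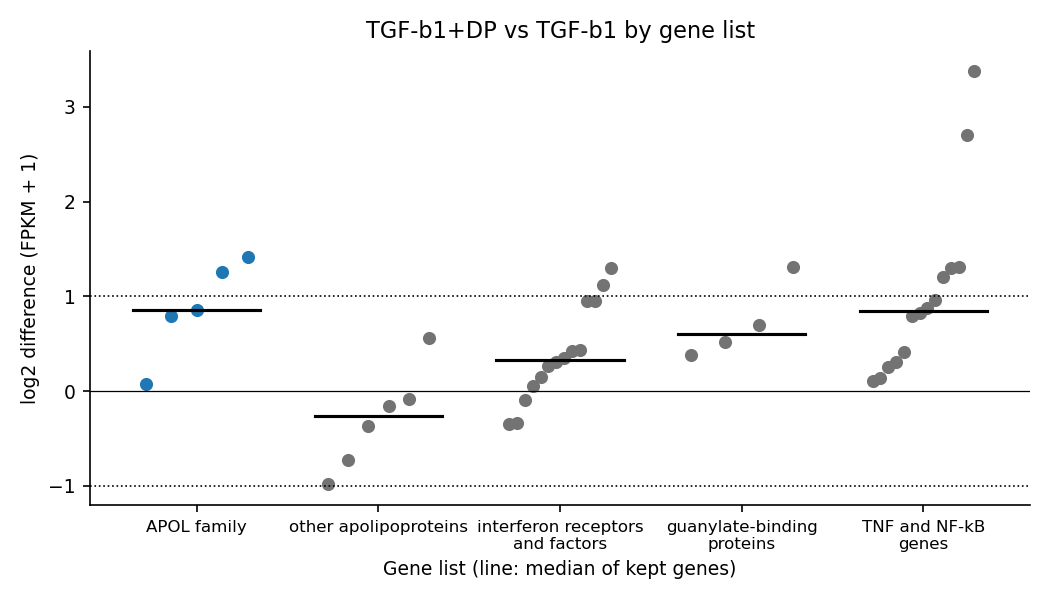
Log2 difference (FPKM + 1) between TGF-b1+DP and TGF-b1 for the kept genes of 5 lists, 1 point per gene, sorted within each list, with the list median as a black line and the 2-fold rule as dotted lines. The APOL median of 0.85 and the TNF and NF-kB median of 0.85 lie above the interferon median of 0.33 and the median of -0.26 for other apolipoproteins.

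The genes whose levels followed APOL2 most closely were sought among 8382 others with a mean of at least 5 FPKM, by the distance between their log2(FPKM + 1) values in the 3 libraries after each gene was centred on its own mean. The nearest were PTAR1 (distance 0.02), RRP12 (0.02), MFSD12 (0.03), SH3RF3 (0.03) and CARD16 (0.03). PTAR1 had 4.41, 3.65 and 7.14 FPKM in the usual library order. APOL6 ranked at place 239, APOL1 at 647 and APOL3 at 1123 in likeness to APOL2. For APOL1 the nearest were NFKB1 (0.04), UTP20 (0.05), ZNF618 (0.05), RASA3 (0.06) and DTX3L (0.06), and APOL3 ranked at place 41. The NF-kB subunit NFKB1 was at 17.1, 10.8 and 26.3 FPKM. Each pattern rests on 3 values, 1 per library, taken without the length and GC correction, and whether the likeness would recur in other libraries was not tested.

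Position on the chromosome was described because 4 members lie side by side. There were 14 other measured genes within 500 kb of the cluster or of APOL6, and 11 were kept. With DP against TGF-b1 alone 1 was higher and 1 lower, beside 6.19% and 4.26% of all kept genes, and the median was 0.16. The gene next to APOL1 is MYH9, which encodes a non-muscle myosin heavy chain, and it had 449.8 FPKM with the vehicle, 251 with TGF-b1 alone and 569 with DP (1.18). RBFOX2, a splicing factor gene next to APOL3, was at 34.6, 18.2 and 36.7 FPKM (0.97). Both flanking genes had the order of libraries of APOL1, APOL2, APOL3 and APOL6, but after the correction for length and GC content MYH9 was at 0.40 and RBFOX2 at 0.62, while APOL1 stayed at 1.29 and APOL3 at 1.44. RASD2, beyond APOL6, was lower with DP (19.2 FPKM with TGF-b1 alone and 9.06 with DP), and TXN2, beyond MYH9, was at -0.46. APOL4, which lies between APOL3 and APOL2, had a difference of 0.08 where its neighbours had 1.42 and 0.79. For TGF-b1 against DMSO 2 of the 11 were lower, beside 6.73% of all kept genes, and none higher, with a median of -0.31. The 2 were MCM5 (-1.29) and FOXRED2 (-1.28). Neither was past 2-fold after the length and GC correction (-0.81 and -0.83). With equal totals 4 of the 11 were lower, beside 1564 of the 11327 kept genes. The correction also took IFT27 from -0.70 to -1.20 for DP against TGF-b1 alone, while RASD2 was at -0.68 there with equal totals. For TGF-b1+DP against DMSO RASD2 was lower (-1.49) and none was higher, beside 2.88% of all kept genes lower and 2.45% higher. The median was -0.21.

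**Figure D5:**
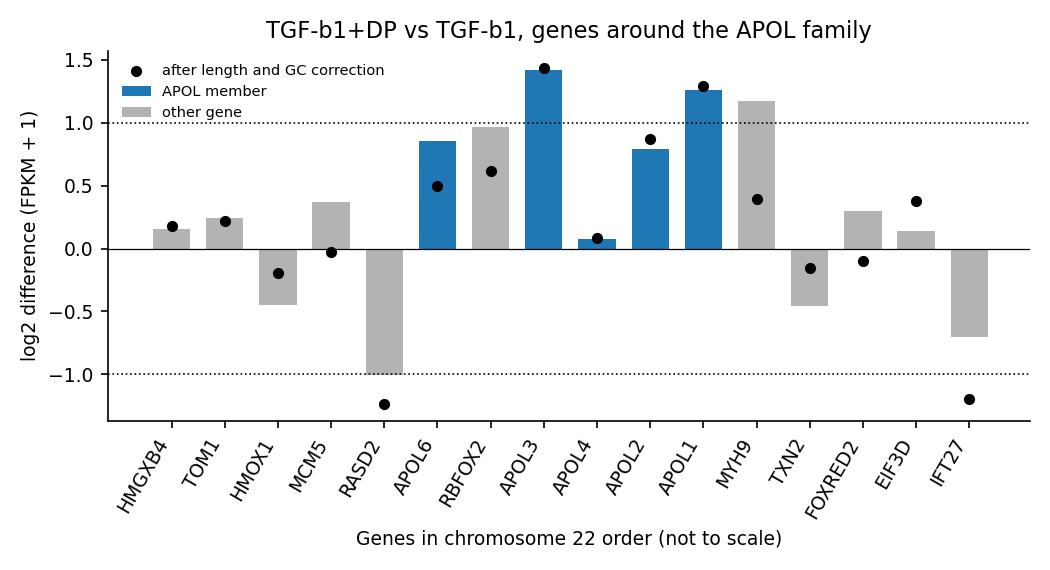
Log2 difference (FPKM + 1) of TGF-b1+DP against TGF-b1 for kept genes around the APOL family in their order on chromosome 22, as bars from 0, with black points for the value once the length and GC trend was removed. APOL3 goes from 1.42 to 1.44 and APOL1 from 1.26 to 1.29, while MYH9 goes from 1.18 to 0.40.

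A fixed list of 3 genes of the endoplasmic reticulum and of Notch signalling was set beside APOL2. ATP2A2, the calcium pump of that membrane, had 97.3, 54.0 and 115 FPKM, the order of libraries seen in APOL2 (a log2 difference of 1.08 for DP against TGF-b1 alone, and 0.79 after the length and GC correction), while EIF2AK3, which encodes the stress sensor PERK, was at 4.69, 4.90 and 3.73 and HES1, a Notch target, at 3.17, 20.4 and 1.49.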

How the data were processed

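RNA was measured in 3 LX-2 libraries, 1 per group. The authors deposited 1 table of FPKM values to 2 decimals, 1 column per library, per the file headers. Per the submitters' processing notes the build was GRCh38.p13 and Cufflinks, Cuffdiff, Bowtie and BWA were used. The sources used here do not give their roles, versions or strand setting. Because FPKM divides by all mapped fragments of a library, abundant transcripts move every other value.

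Of 17596 lines, 20 carried annotation text and no gene. Genes that averaged 1 FPKM or more were kept (11327), all 5 members among them. Differences used a pseudocount of 1 FPKM, which understates low genes. There was no test. The correction removed a cubic trend in log2 length of the longest GENCODE transcript and GC content, fitted over the 11280 kept genes with a transcript (99.6%) and centred on their median difference. The 2-fold rule, applied before any correction, and the trend removal were tried on simulated libraries. Length and GC content were drawn at random there, with a trend linear in log2 length, so removal of the real trends was not tested. Whole-fragment steps were sought in 64 to 75 short genes with little intron, with a best coherence of 0.20 to 0.29, where 1 would be a perfect step.

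The members and gene lists were chosen with earlier results of these data known. Named genes were the members, the 3 highest and lowest of each list and those past 2-fold for DP against TGF-b1 alone, flanking genes and those past 2-fold nearby, and the 5 most alike to APOL2 and to APOL1. ATP2A2, EIF2AK3 and HES1 formed a further list of 3 genes, named in full. They do not stand for all genes of the endoplasmic reticulum or of Notch signalling. APOE, APOA1, APOL5, TNF, IRF9, IRF1, TXN2 and IFT27, the cell markers, and the list genes past 2-fold in other comparisons or settings were singled out after their values were seen. Some genes that this rule names are counted in their lists but not reported here. Other settings were a pseudocount of 0.1 or none, 2 scalings, 2 filters, the correction and a 1.5-fold rule. Python 3.11.15, numpy 2.4.6, pandas 2.3.3, matplotlib 3.10.9, bedtools 2.31.1 and blastn 2.17.0 were used.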

Additional observations from a re-analysis of the deposited data

How the results depend on the processing

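With DP against TGF-b1 alone, 4 members were higher with the same total FPKM and 4 at a 1.5-fold rule, against 2 as deposited. Of the 11327 kept genes 1434, 1913 and 701 were higher, in that order of settings. At the 1.5-fold rule 2 members were lower in TGF-b1 than in DMSO, beside 2367 kept genes. At that rule 3 members were higher in TGF-b1+DP than in DMSO, beside 617 kept genes. At 2-fold no member was called in either of these comparisons. The other settings left the counts at 2, 0 and 0. The member median for DP against TGF-b1 alone (0.85) was 0.94 at a pseudocount of 0.1, 1.16 with the same total, 0.84 under median-of-ratios scaling, 1.06 among the 4 members above 5 FPKM, 0.87 after the length and GC correction and 0.95 with no pseudocount, a setting chosen after seeing the data. For TGF-b1 against DMSO (-0.54) these were -0.60, -0.80, -0.37, -0.57, -0.32 and -0.61, and for TGF-b1+DP against DMSO (0.60) they were 0.61, 0.65, 0.77, 0.61, 0.68 and 0.61. No member's difference changed sign under any of these settings, before the median of all genes is taken off. Over the whole table the counts of genes past the rule, 1184, 1024 and 604 in the same order of comparisons, were 629, 464 and 552 after the correction, 3816, 3759 and 1770 at 1.5-fold, 1569 and 1668 in the second comparison at a pseudocount of 0.1 and with the same total, and without a pseudocount 1631 in the second comparison and 908 in the last. For DP against TGF-b1 alone the count was 1660 at a pseudocount of 0.1, 1559 with the same total and 1715 without a pseudocount. For TGF-b1+DP against DMSO it was 880 at a pseudocount of 0.1. Median-of-ratios scaling gave 1196, 1071 and 571, and the filter at a mean of 5 FPKM 940, 789 and 405. The cause was not tested. No paired analysis was possible because each group is 1 library. Without fragment counts, the precision of APOL4 near 1 FPKM is unknown.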
